A study of Mus musculus with 30 samples.

Results

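Genes of the distal part of mouse chromosome 6 that did not respond to interferon-gamma (IFNG) were examined in J774A.1 macrophages carrying a homozygous deletion of a B2 SINE in Dicer1. The 464 members were selected on a gene start above position 30000000, a mean of at least 1 CPM (counts scaled to library size) over all libraries, an absolute log2 ratio of IFNG to untreated mean CPM (each plus 0.5) under 0.5 over the 18 wild-type (WT) libraries, and a symbol that does not begin with Clec. They were drawn from 54146 genes in the table. Of 2788 annotated distal genes, 544 reached 1 CPM, 70 of these were left out for their WT response and 10 as Clec genes. The WT response, the mean level and the position chose the members, and no test is given on them. The question was which members followed a lower level shared by both KO clones, which escaped it, and how function and level divided them.

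J774A.1 is a mouse macrophage line derived from a tumour. The genes here have little in common beyond their chromosome: the region holds glycolytic enzymes, replication factors, chromatin regulators, ribosomal protein genes, lysosomal sorting receptors, the Hoxa cluster and receptors of the macrophage surface. Many are housekeeping genes, which IFNG, the cytokine that activates macrophages, is not known for inducing. A processed pseudogene is a copy of a spliced transcript inserted into the genome, usually far from the parent gene, so that its sequence stays close to a transcript made elsewhere.

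The libraries came from 3 WT clones and 2 knockout (KO) clones, each either left untreated or stimulated with mouse IFNG (100 ng/mL, 4 h). Every clone gave 3 libraries in each of these states, 30 in all. The KO clones were made by electroporation with guide RNAs flanking the B2_Mm2.Dicer1 element, an intronic SINE of Dicer1 on chromosome 12, and both carried the deletion on every allele. The WT clones went through single-cell expansion and not through electroporation, so the deletion, the editing procedure and the history of each clone cannot be told apart. The libraries of 1 clone are not separate clones, and tests over libraries measure the spread among them within and between few clones. RNA input was 200 or 500 ng with either of 2 adapter kinds, and which library had which was not analysed here.

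The promoters of a pair of escaping genes and their nearest following protein-coding neighbours are shown first, because these genes lie close together on the chromosome and differed in outcome. Lowest gene coordinates had to lie within 30 kb, and each RefSeq start within 500 bases of the upstream end of the counted gene. M6pr with its neighbour Phc1 met the first condition and not the second. For Foxj2 the RefSeq start was 270 bases from that end. Each line gives the 250 bases upstream of the RefSeq start on the strand of the gene, from the assembly GRCm38.p6. C3ar1, the receptor for complement fragment C3a, has the window chr6:122856158-122856407 on the minus strand, and it lies between Foxj2, a forkhead transcription factor (chr6:122819934-122820183, plus strand), and Necap1, a clathrin-coat protein (chr6:122874307-122874556, plus strand). H2afj, a histone H2A variant (chr6:136807998-136808247, plus strand), is followed by Wbp11, a splicing factor (chr6:136828217-136828466, minus strand). Capitals mark GGGCGG (GC box), TATAAA and CCAAT on either strand.
C3ar1: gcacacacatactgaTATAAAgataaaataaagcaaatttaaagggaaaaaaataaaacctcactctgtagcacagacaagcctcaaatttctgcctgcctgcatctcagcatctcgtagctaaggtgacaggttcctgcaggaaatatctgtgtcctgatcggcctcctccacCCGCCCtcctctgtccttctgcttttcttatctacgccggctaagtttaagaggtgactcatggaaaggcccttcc
Foxj2: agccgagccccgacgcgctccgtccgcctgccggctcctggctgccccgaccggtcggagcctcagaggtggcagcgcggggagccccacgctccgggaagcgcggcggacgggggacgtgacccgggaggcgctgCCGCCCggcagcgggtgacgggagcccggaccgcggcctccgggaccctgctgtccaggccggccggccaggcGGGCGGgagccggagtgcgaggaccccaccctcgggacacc
Necap1: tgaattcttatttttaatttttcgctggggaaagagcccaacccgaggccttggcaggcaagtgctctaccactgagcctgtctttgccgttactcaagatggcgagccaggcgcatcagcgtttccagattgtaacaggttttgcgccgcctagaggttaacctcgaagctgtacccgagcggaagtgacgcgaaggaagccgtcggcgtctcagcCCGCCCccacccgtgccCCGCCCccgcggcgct
H2afj: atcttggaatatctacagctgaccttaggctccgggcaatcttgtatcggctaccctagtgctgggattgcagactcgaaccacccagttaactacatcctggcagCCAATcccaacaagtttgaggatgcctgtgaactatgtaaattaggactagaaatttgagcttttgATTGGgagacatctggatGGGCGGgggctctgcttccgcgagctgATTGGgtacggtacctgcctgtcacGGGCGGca
Wbp11: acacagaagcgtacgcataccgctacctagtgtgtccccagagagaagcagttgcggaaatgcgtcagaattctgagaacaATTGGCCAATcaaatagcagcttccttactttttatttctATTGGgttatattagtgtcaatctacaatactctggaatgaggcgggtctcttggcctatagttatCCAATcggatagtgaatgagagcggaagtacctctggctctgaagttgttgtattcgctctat

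The C3ar1 window held 1 GC box and 1 TATAAA, the H2afj window 2 GC boxes and 3 CCAAT boxes, the Foxj2 and Necap1 windows 2 GC boxes each, and the Wbp11 window 4 CCAAT boxes, of which a pair lie back to back. Of the 464 members, 336 matched a promoter in the RefSeq table. A GC box lay in 56.5% of the promoters of the 168 matched members called lower in both KO clones (followers), in 70.9% of those lower in 1 clone, in 54% of the 113 matched members that were not called lower and in 70.6% of the 17 matched members above the level shared by the members. Over all members the share was 58%, over genes of other chromosomes within the same limits 61.5%, and over all 20933 promoters, silent genes included, 39.3%. TATAAA was found in 4.76% of the followers, 9.73% of the members not called lower, 5.56% of the genes of other chromosomes and 12.3% of all promoters, and CCAAT in 33.3%, 39.8%, 37.8% and 35.4%. These shares describe letters in a window and were not tested.

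The 30 libraries held 15566122 to 37992642 counts (median 23682133.5). Dicer1, the gene whose intron was edited, was at 105 ± 7.21, 128 ± 2.95 and 123 ± 2.48 CPM (mean ± SD, n = 3 libraries) in untreated WT1, WT2 and WT3, at 71.5 ± 1.30 in KO1 and at 105 ± 3.65 in KO2. The untreated level of KO2 was within 1 SD of that of WT1. With IFNG it was at 136 to 161 CPM in the WT clones (clone means) and at 75 and 99.6 in the KO clones. All 8 macrophage markers passed 1 CPM, summing to 3899 to 5405 CPM in WT and 5820 to 6459 in KO libraries. No T cell, B cell or epithelial marker of 3 each reached 1 CPM, and 1 of 3 fibroblast markers did, that list summing to at most 2.92 CPM. The difference in macrophage marker sum was not tested for a part in the members' levels. In bulk RNA, fewer cells of a type and less RNA per cell cannot be told apart.

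The members as a group were lower in every KO library. The median over the 464 members of log2(CPM + 0.5), less the mean of the WT clones at the same treatment (for a WT library, of the other WT clones), ran from -0.29 to -0.24 in the 6 untreated KO libraries and from -0.29 to -0.25 in the 6 with IFNG. It was -0.05 to 0.04 and -0.03 to 0.02 in the WT libraries, so KO and WT libraries did not overlap in either treatment. Members made up 4.25 to 4.38% of the CPM scale in the WT libraries and 3.58 to 3.73% in the KO libraries. CPM were scaled by TMM factors, so these are not exact shares of counts. The 54 genes of proximal chromosome 6 within the same limits of level and response had library medians of 0.01 to 0.15 in KO, and the 10444 genes of other chromosomes 0.01 to 0.03.

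**Figure D1:**
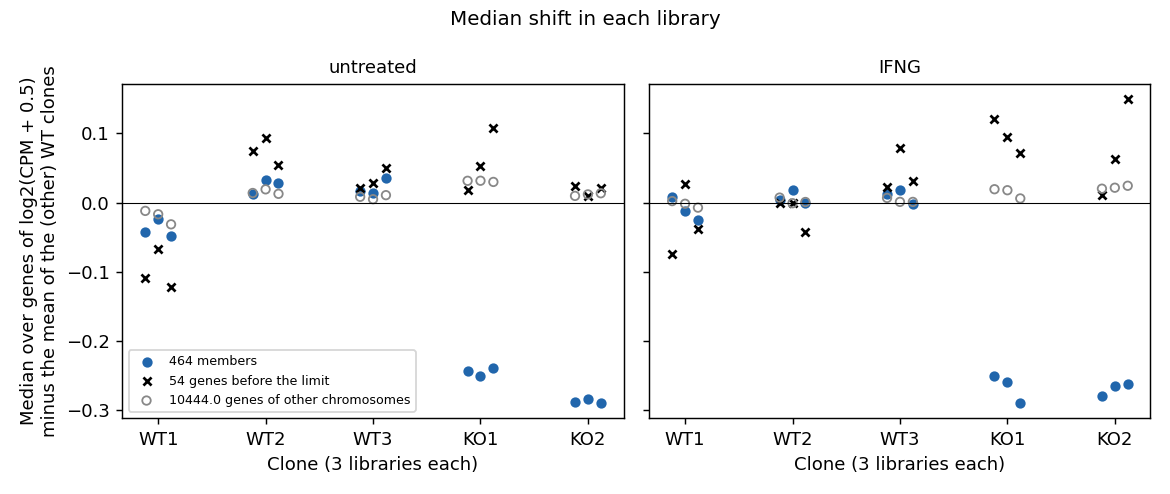
Median over genes of log2(CPM + 0.5) minus the mean of the WT clones of the same treatment (y axis) in each of the 30 libraries, by clone (x axis) and treatment (panels), with 1 point per library for each of 3 gene sets. The members lie between -0.29 and -0.24 in all 12 KO libraries and between -0.05 and 0.04 in the WT libraries, while genes of other chromosomes stay near 0.

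Fitted gene by gene with edgeR over all tested genes, the median member stood at a log2FC of -0.27 in KO1 and -0.31 in KO2 untreated, which is 0.828 and 0.809 of the WT level, and at -0.27 and -0.29 with IFNG. In KO1, 237 of 464 members (51.1%) were called lower at an adjusted p under 0.05 and 9 higher, where 14.6% of all tested genes were lower and 11.1% higher. In KO2, 234 members were lower (50.4%) and 4 higher, against 6.7% and 4.89% of all tested genes. With IFNG, 226 members were lower in KO1, against 12.1% of all genes, and 203 in KO2, against 6.12%. With the libraries of both KO clones pooled, 302 members were lower and 10 higher untreated (14.4% and 12.2% of all genes), and 282 were lower with IFNG (13% of all genes). All 6 untreated KO libraries lay below all 9 WT libraries for 181 members, against 5.1% of all genes, and for 176 members with IFNG, against 4.76%. When counts were summed per clone and 2 KO clones set against 3 WT clones, no member was called by edgeR in either treatment, while 215 were lower and 3 higher at an unadjusted p under 0.05 untreated and 205 and 3 with IFNG, at the same medians of -0.28. DESeq2 was not run on these sums. KO2 counts fell with any 1 library left out under IFNG: without library a, b or c of KO2, 103, 104 or 124 members were lower with IFNG, and without library c, 150 were lower untreated.

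Medians away from 0 were also measured on other chromosomes. The 376 genes of chromosome 12 within the same limits, the chromosome of the deletion, had a median log2FC of -0.37 in KO1 (250 called lower) and -0.00 in KO2, and the 566 genes of chromosome 17 had medians of 0.20 in both clones. The 643 genes of chromosome 1 had medians of -0.07 in KO1 and -0.06 in KO2, with 24.3% and 18.8% called lower, so medians below 0 in both KO clones were not limited to distal chromosome 6.

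The shared lower level ran along the whole distal chromosome. In stretches of 10 Mb from 30 Mb to the end, the median log2FC lay between -0.41 and -0.18 in KO1 and between -0.36 and -0.24 in KO2, and 32.4 to 55.2% of the members of a stretch were called lower in both clones. The members next to the limit were set apart in a division that was chosen after the values were seen. The 7 members that start in the first 1 Mb beyond the limit were Nrf1, a transcription factor, Ube2h, a ubiquitin-conjugating enzyme, Zc3hc1, Klhdc10, Tmem209, Cep41 and Copg2, a coatomer subunit. None of them was called lower in both KO clones by edgeR or by DESeq2, and 1 was at an unadjusted p under 0.05. Their median log2FC was -0.02 in KO1 and 0.04 in KO2, close to the 0.03 and 0.01 of the 54 proximal genes, of which 7 were lower and 7 higher in KO1 and 0 and 1 in KO2. The 457 members beyond had medians of -0.28 and -0.31. In 2 Mb steps the medians were 0.07 and 0.06 from 28 to 30 Mb (12 genes), -0.11 and 0.01 from 30 to 32 Mb (10 genes), -0.29 and -0.41 from 32 to 34 Mb (3 genes), -0.23 and -0.29 from 34 to 36 Mb (11 genes), -0.06 and -0.09 from 36 to 38 Mb (4 genes) and -0.54 and -0.36 from 38 to 40 Mb (21 genes). The 4 genes from 36 to 38 Mb thus also had medians near 0, which with IFNG were -0.00 and 0.02.

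**Figure D2:**
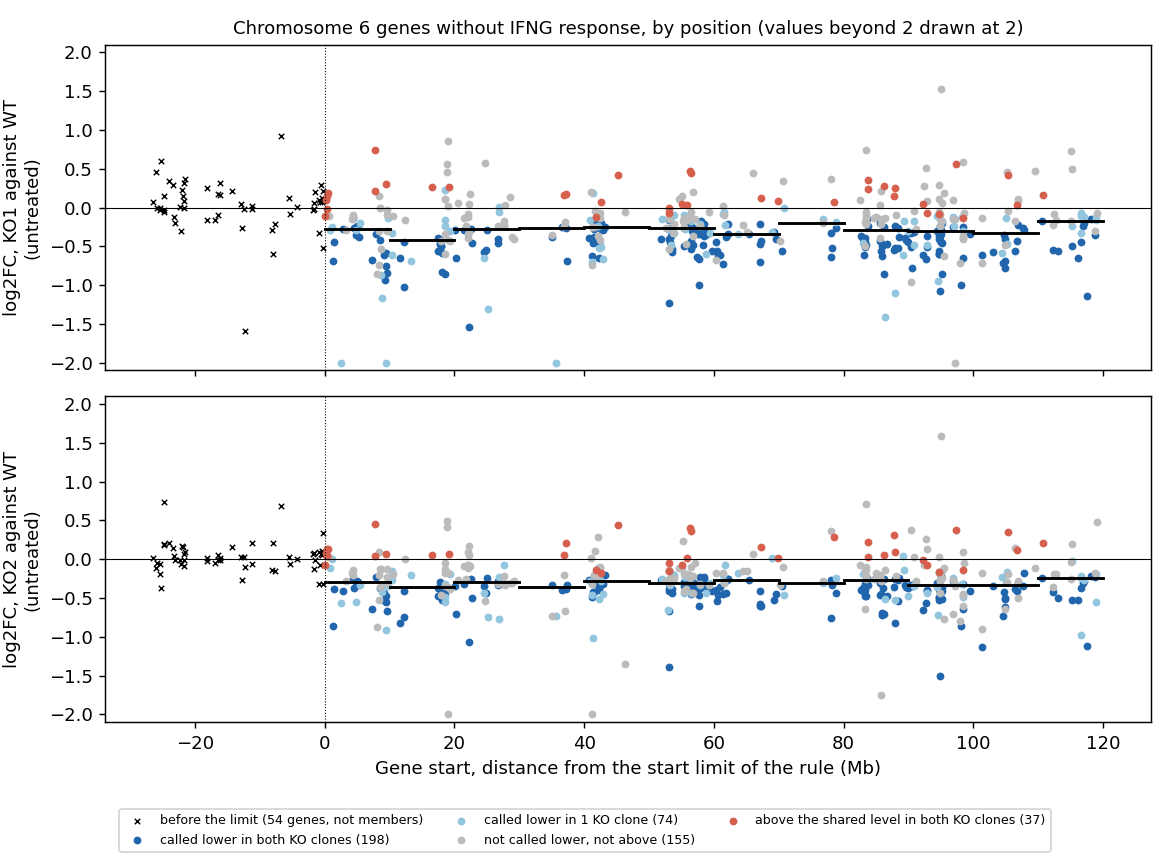
Untreated log2FC of each KO clone against WT (y axis) by distance of the gene start from the limit of 30 Mb on chromosome 6 (x axis, Mb), with members coloured by class, proximal genes as crosses and the median of each 10 Mb stretch as a bar. Crosses scatter around 0, all bars lie below 0, and a member lower in 1 clone yet above the shared level in both (Htra2) is drawn as above.

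Members were then divided by the untreated libraries. Those called lower in both KO clones are named followers here, and both calls use the same 9 WT libraries. There were 198 followers (42.7% of members), where 5.11% of all tested genes were lower in both. A further 75 members were lower in 1 clone, 39 in KO1 and 36 in KO2, and 191 (41.2%) were not called lower in either. The followers' medians were -0.42 in KO1 and -0.38 in KO2. The clones themselves differed for 19 of the 39 members lower in KO1 alone and 20 of the 36 lower in KO2 alone (edgeR, KO1 against KO2, adjusted p under 0.05), so for the rest a difference between clones was not shown.

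The libraries with IFNG were not used for these classes, although they come from the same clones. The rule kept genes whose WT means differ little between treatments, so the WT reference with IFNG was tied to the untreated one. The values with IFNG are therefore not independent of the untreated ones. All 198 followers had a log2FC below 0 in both KO clones with IFNG, 154 were again called lower in both, 32 in 1 and 12 in neither, and their medians were -0.41 and -0.36. Among the 191 members not called lower untreated, 171 were again not called in either clone. Over all members 173 were lower in both clones with IFNG, against 4.59% of all tested genes. Without WT1 this count was 271, and 283 for the untreated followers.

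**Figure D3:**
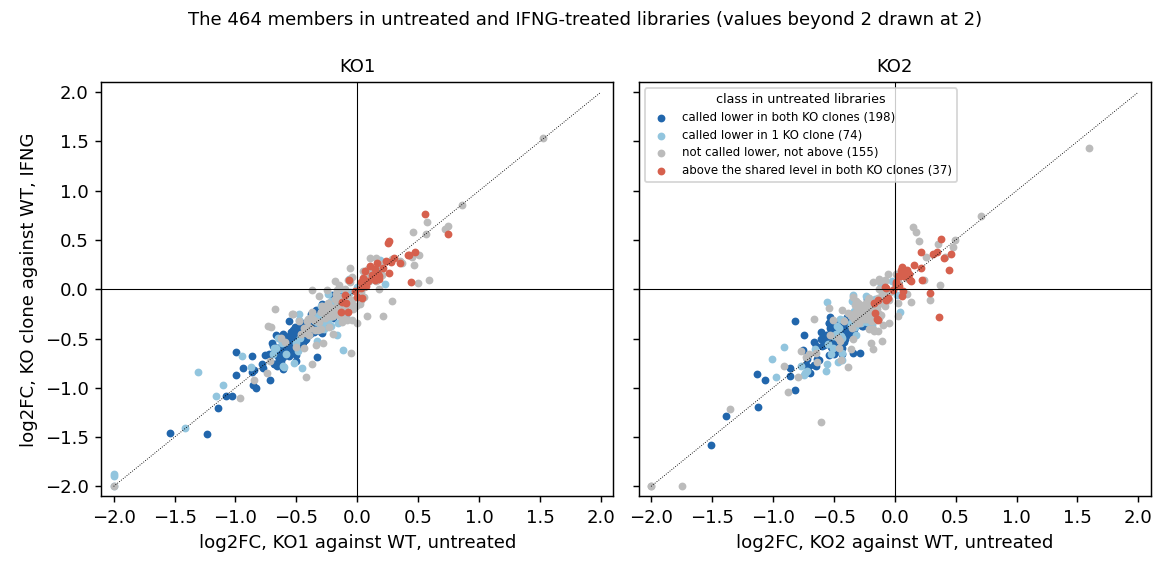
Log2FC of KO against WT for each member in untreated libraries (x axis) and in libraries with IFNG (y axis), 1 panel per KO clone and 1 point per member, coloured by untreated class, with values beyond 2 drawn at 2 and a dotted line of equality. Followers have medians of -0.42 and -0.38 untreated and -0.41 and -0.36 with IFNG, and all 198 lie below 0 in both treatments.

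Not being called lower is not the same as escaping. A second fit took its scaling from the members alone, so that 0 is the level shared by the members and a member that kept its WT level sits near 0.3. On that scale 37 members were called above the shared level in both KO clones untreated, against 41.3% of all tested genes, which on other chromosomes mostly had no loss. With IFNG 34 were (38.9% of all genes), and 26 were above in both treatments. Another 36 members were below the shared level in both clones (1.47% of all genes), and 19 were so in both treatments, where 1.41% of all genes were below with IFNG. Of the 191 members not called lower, 36 were above the shared level, 1 more was called higher against WT, and the remaining 154 were neither.

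These 154 members had wide spreads among the WT clones. The ratio of the highest to the lowest untreated WT clone mean had a median of 1.38 in them and exceeded 1.5 in 51 (33.1%), against a median of 1.14 and 5 members (2.53%) in the followers. Their median log2FC of -0.14 in KO1 and -0.20 in KO2 had a median SE of 0.157 and 0.156, where that of the followers was 0.0673 and 0.0672. Of the 154, 103 were below 0 in both clones. The calls that set the classes used these same WT libraries, so a smaller spread and SE in the followers was partly fixed by the division. The part of the spread in their not being called was not tested.

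Followers were found at every level. In terciles of mean CPM per kb of exon, 56 of 155 members of the lowest tercile were followers, 67 of 154 of the middle and 75 of 155 of the highest. The lowest tercile had the lower medians, -0.42 in KO1 and -0.38 in KO2, against -0.23 and -0.28 in the highest. With IFNG the followers numbered 58, 56 and 59 from the lowest to the highest tercile. By mean CPM not divided by length, the counts untreated were 39, 74 and 85. The median SE of the pooled untreated log2FC was 0.11 in the lowest tercile per kb and 0.0586 in the highest. By mean CPM it was 0.124 and 0.0537. A call needs a larger loss where the SE is larger, and the part of this in the counts was not tested.

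By function, the share of followers ran from 20% in the macrophage list to 81.2% in the ubiquitin list untreated, and from 28.1% in the mitochondrial list to 68.8% in the ubiquitin list with IFNG, where the macrophage list had 30%. The lists were not tested against each other, and the median SE of the pooled log2FC was 0.21 in the macrophage list and 0.0555 in the ubiquitin list. The lists were grouped by known function from memory, without an annotation source, so the shares of small lists depend on that grouping. Of 464 members 267 were in one of 10 lists, and 54 of the 197 in none were followers. Every list had a pooled median below 0.

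In the ubiquitin list 13 of 16 members were followers, 14 were lower in the pooled untreated libraries, and the median log2FC was -0.34. Cul1 was at 206 to 255 CPM (median 238) in the 9 WT libraries and 173 to 188 CPM (median 179) in the 6 KO libraries. Cul1 is the scaffold of the SCF ubiquitin ligases, and its KO libraries all lay below its WT libraries (log2FC -0.38 ± 0.05 (SE), adjusted p = 1.59e-05, edgeR). Usp5, which takes apart free ubiquitin chains, had a log2FC of -0.30 ± 0.04 (SE), adjusted p = 3.73e-05. Crbn, the substrate receptor of a CUL4 ligase and the target of thalidomide, had the highest value of the list, log2FC -0.23 ± 0.05 (SE), adjusted p = 0.00628.

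In the list of chromatin and transcription 29 of 42 members were followers, 35 were lower pooled and the median was -0.35. The Polycomb methyltransferase gene Ezh2 and the heterochromatin protein gene Cbx3 were lower in both clones and both treatments. Chd4 was at 547 to 661 CPM (median 646) in the 9 WT libraries and 479.8 to 550.0 CPM (median 520.5) in the 6 KO libraries. The groups overlapped for Chd4, the helicase of the NuRD complex, which had a log2FC of -0.28 ± 0.05 (SE), adjusted p = 0.000524 and was a follower. Mlf2 had a log2FC of -0.18 ± 0.07 (SE), adjusted p = 0.0818. H2afj, whose promoter is printed above, was at 33.2 to 49.8 CPM (median 40.8) in WT and 38.9 to 46.5 CPM (median 41.8) in KO libraries, which overlap, with log2FC 0.07 ± 0.08 (SE), adjusted p = 0.53.

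DNA replication, repair and cell cycle held 11 followers among 20 members, 18 lower pooled and a median of -0.39. Mcm2 was at 332 to 392 CPM (median 368) in the 9 WT libraries and 277 to 297 CPM (median 287) in the 6 KO libraries. The groups did not overlap for Mcm2, a subunit of the replicative helicase (log2FC -0.34 ± 0.03 (SE), adjusted p = 3.98e-06), and its log2FC with IFNG was -0.38. Ncapd2, a condensin subunit, Cdca3 and Cdkn1b, the gene of the inhibitor p27, were likewise lower in both clones and both treatments. Pole4, a subunit of DNA polymerase epsilon, had a pooled log2FC of -0.27 ± 0.09 (SE), adjusted p = 0.0283, and Rhno1, a partner in checkpoint signalling, log2FC -0.13 ± 0.04 (SE), adjusted p = 0.0161.

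Of the 46 members for RNA processing and translation, 26 were followers, 35 were lower and 1 higher pooled, with a median of -0.26. Rpl32 was at 816 to 1123 CPM (median 909.5) in the 9 WT libraries and 769 to 833 CPM (median 791) in the 6 KO libraries. The groups overlapped for Rpl32, a protein of the large ribosomal subunit, with a log2FC of -0.24 ± 0.06 (SE), adjusted p = 0.00695. Cnbp, a nucleic-acid binding protein, had a log2FC of -0.28 ± 0.08 (SE), adjusted p = 0.0171. Reads of ribosomal protein genes can be shared with near-identical pseudogenes, so the value of Rpl32 is uncertain. Pcbp1 and Hnrnpf, which bind RNA, were lower in both clones and both treatments. The member higher pooled was Tra2a, a splicing regulator.

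Signalling and cell death held 12 followers of 24, 17 lower pooled and a median of -0.39. Wnk1 was at 769 to 881 CPM (median 819) in the 9 WT libraries and 584 to 656 CPM (median 618) in the 6 KO libraries. Wnk1, a kinase that governs ion transport, did not overlap between the groups (log2FC -0.41 ± 0.04 (SE), adjusted p = 3.98e-06). Mob1a, a component of Hippo signalling, had a log2FC of -0.27 ± 0.04 (SE), adjusted p = 0.000207.

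Of 51 members of the secretory pathway and lysosome, 27 were followers, 44 were lower pooled and the median was -0.30. Rpn1, of the oligosaccharyltransferase, and Pdia4, a disulfide isomerase, were lower in both clones and both treatments, and St3gal5, the GM3 synthase, had a pooled log2FC of -0.17 ± 0.04 (SE), adjusted p = 0.00255. In the mitochondrial list 14 of 32 were followers and 23 lower pooled, with a median of -0.23. Phb2, a prohibitin, had a log2FC of -0.11 ± 0.05 (SE), adjusted p = 0.0869, Ndufa9, a complex I subunit, log2FC -0.27 ± 0.05 (SE), adjusted p = 0.000408, and Sfxn5, a transporter of the inner membrane, log2FC 0.05 ± 0.09 (SE), adjusted p = 0.727.

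The cytoskeleton list had 5 followers of 13 members, 7 lower pooled and a median of -0.19. Arhgdib was at 730.2 to 806 CPM (median 784) in the 9 WT libraries and 619.7 to 672 CPM (median 642) in the 6 KO libraries. Arhgdib did not overlap between groups (log2FC -0.27 ± 0.03 (SE), adjusted p = 1.72e-05), and Capg, an actin-capping protein, had a log2FC of -0.24 ± 0.05 (SE), adjusted p = 0.00116.

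Glycolysis and sugar use also had 5 followers, of 13 members, 7 lower pooled and a median of -0.23. The glucose transporter gene Slc2a3 and Bpgm, bisphosphoglycerate mutase, were lower in both clones and both treatments. Tpi1, triosephosphate isomerase and the highest member per length of this list, was at 1531 ± 78.6, 976 ± 33.1 and 935 ± 44.7 CPM in WT1, WT2 and WT3 and at 1044 ± 61.4 and 949 ± 54 in KO1 and KO2 (mean ± SD, n = 3 libraries). WT1 stood apart, both KO clones lay near the other 2 WT clones, and the pooled value was log2FC -0.21 ± 0.14 (SE), adjusted p = 0.288. Eno2, an enolase, was at 78.3 ± 5.39 CPM in WT1, 6.73 ± 2.07 in WT2, 7.24 ± 0.68 in WT3, 33.9 ± 4.23 in KO1 and 27.6 ± 4.26 in KO2. Its pooled log2FC -0.03 ± 0.65 (SE), adjusted p = 0.982 became 2.15 without WT1 (adjusted p = 1.25e-08, edgeR). Akr1b8, an aldo-keto reductase, had a log2FC of -0.16 ± 0.12 (SE), adjusted p = 0.364. Gapdh was measured at 56.3 to 83.7 CPM (median 59.7) in WT and 50.8 to 63.4 CPM (median 57.6) in KO libraries, and its reads can be shared with near-identical pseudogenes, so its level is uncertain.

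**Figure D4:**
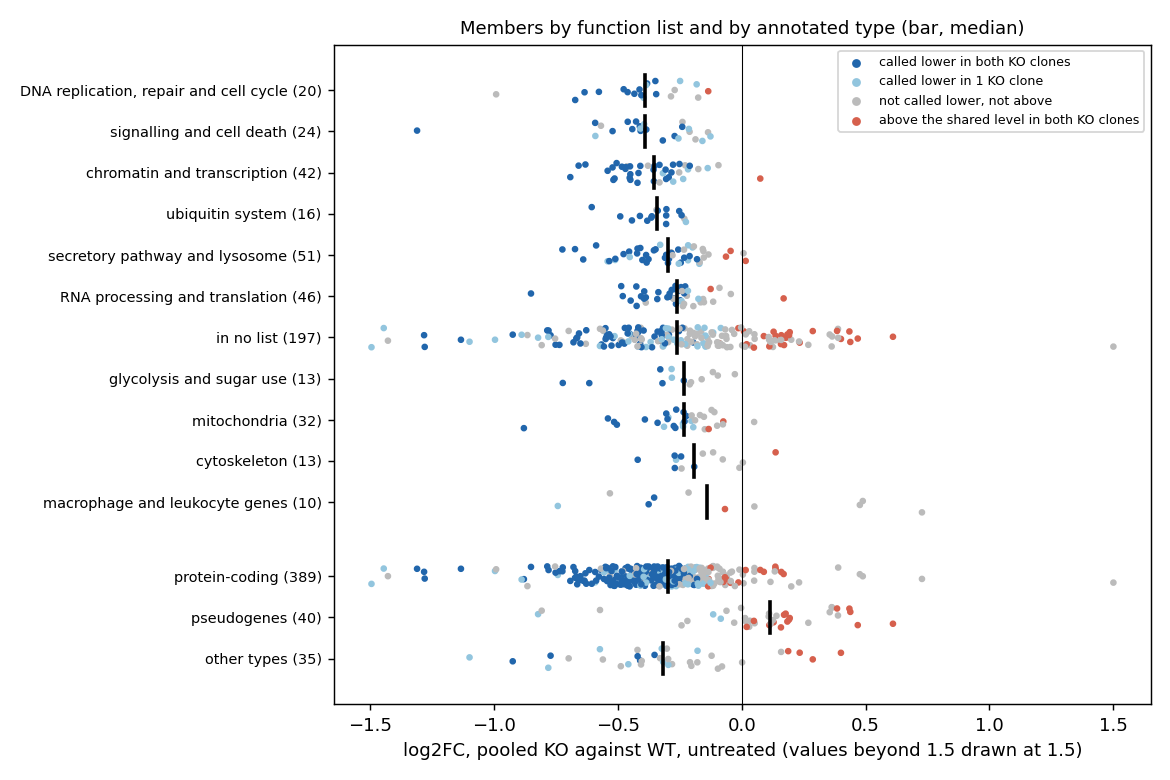
Pooled untreated log2FC of KO against WT (x axis) for the members of each of the 10 function lists, in no list and of each annotated type (rows, with the number of members), 1 point per member coloured by class and a bar at the median, with values beyond 1.5 drawn at 1.5. Every row but the pseudogenes has its median below 0, the lists from -0.39 for replication and signalling to -0.14 for macrophage genes.

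The macrophage and leukocyte list had 2 followers of 10 members, 4 lower pooled and a median of -0.14. Ptpn6, the phosphatase SHP-1, was lower in both clones and both treatments (pooled log2FC -0.38 ± 0.07 (SE), adjusted p = 0.00111), as was Lpcat3, an enzyme of phospholipid remodelling. C3ar1 was at 757 to 886 CPM (median 806) in the 9 WT libraries and 747 to 809 CPM (median 767) in the 6 KO libraries. The groups overlapped for C3ar1, with log2FC -0.07 ± 0.04 (SE), adjusted p = 0.238 untreated and log2FC 0.05 ± 0.05 (SE), adjusted p = 0.526 with IFNG. For Il17rc, a subunit of the IL-17 receptor, 1 WT clone stood apart. Its 6 libraries of WT3 held at most 0.071 CPM, and it was at 5.53 ± 0.566 and 5.02 ± 0.567 CPM in untreated WT1 and WT2 and at 6 ± 0.258 and 5.78 ± 0.565 in KO1 and KO2.

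The largest losses among members of at least 5 CPM whose KO clone means lay outside the range of the WT clone means in both treatments were those of Hoxa7, P3h3 and Ccdc91. Hoxa7 was at 15.1 to 26 CPM (median 22.1) in the 9 WT libraries and 6.62 to 10.7 CPM (median 8.64) in the 6 KO libraries. Hoxa7, a homeobox transcription factor, had no overlap between the groups (log2FC -1.28 ± 0.14 (SE), adjusted p = 1.06e-05) and a log2FC of -1.16 with IFNG. P3h3 was at 8.56 to 19.5 CPM (median 10.2) in the 9 WT libraries and 3.7 to 6.28 CPM (median 4.98) in the 6 KO libraries. The groups did not overlap for P3h3, a collagen prolyl hydroxylase, which had a log2FC of -1.28 ± 0.19 (SE), adjusted p = 0.000153 and -1.32 with IFNG. Ccdc91 was at 8.89 to 15 CPM (median 12.7) in the 9 WT libraries and 5.09 to 6.14 CPM (median 5.71) in the 6 KO libraries. For Ccdc91, a protein of trans-Golgi transport, the groups did not overlap (log2FC -1.13 ± 0.11 (SE), adjusted p = 3.98e-06), with -1.20 with IFNG. Gstk1, a glutathione transferase, Magohb, a core protein of the exon junction complex, and Rab43, a small GTPase, came next with log2FC values of -0.88, -0.85 and -0.78. Besides Hoxa7, P3h3 and Ccdc91, the 19 members below the shared level in both clones and both treatments included Mbd4, a DNA glycosylase, Atn1, Ncapd2, and Itpr2, a calcium channel of the endoplasmic reticulum.

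Protein-coding members seldom escaped. Untreated, 18 protein-coding members were above the shared level in both clones, and 11 protein-coding members were above the shared level in both clones and both treatments, 5 of them in the first 1 Mb beyond the limit. The others were Tra2a, Frmd4b, a scaffold protein with a FERM domain, Tatdn2, a putative nuclease, M6pr, C3ar1 and H2afj. M6pr was at 698 to 747 CPM (median 719) in the 9 WT libraries and 700.1 to 764 CPM (median 727) in the 6 KO libraries. The WT and KO ranges overlapped for M6pr, the cation-dependent receptor that sorts lysosomal enzymes, with log2FC 0.02 ± 0.03 (SE), adjusted p = 0.715, while against the shared level it stood at 0.33 in KO1 and 0.28 in KO2. Tra2a was at 98.8 to 122 CPM (median 104) in the 9 WT libraries and 106 to 133 CPM (median 120.2) in the 6 KO libraries. The ranges overlapped, and Tra2a was called higher than WT, with log2FC 0.17 ± 0.06 (SE), adjusted p = 0.0315. By clone it was at 0.26 in KO1 (adjusted p = 0.00569, edgeR) and 0.07 in KO2 (adjusted p = 0.552). The pooled call of Tra2a was lost without WT2 or without WT3. In the first 1 Mb, Tmem209, a nuclear envelope protein, had a log2FC of 0.16 ± 0.05 (SE), adjusted p = 0.038, Zc3hc1, a protein of the nuclear pore basket, log2FC 0.14 ± 0.04 (SE), adjusted p = 0.0291, and Klhdc10, a substrate receptor of a ubiquitin ligase, log2FC 0.01 ± 0.04 (SE), adjusted p = 0.881. Tmem209 and Zc3hc1 were called higher than WT in neither KO clone alone, and Tmem209 lost its pooled call when the scaling left out chromosome 6. Frmd4b and Tatdn2 had pooled values of 0.14 ± 0.10 and 0.14 ± 0.07 (log2FC ± SE), with adjusted p of 0.335 and 0.158 (edgeR).

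Neighbours were taken among protein-coding members, so pseudogenes and other types between them were passed over. Of these 11 genes, C3ar1, H2afj and Tatdn2 had followers as the nearest protein-coding member on both sides. M6pr and Frmd4b had 1 on 1 side, and Tra2a and those of the first 1 Mb on neither. Distances here run between the lowest coordinates of genes, which for minus-strand genes such as C3ar1 and Wbp11 are not the start of transcription. By this measure C3ar1 lay 27.2 kb from Foxj2, which had a log2FC of -0.51 in KO1 and -0.39 in KO2. Necap1 (-0.36 and -0.40) was 27.3 kb away, while C3ar1 itself was at -0.07 and -0.07. By the printed windows Necap1 lies nearer to C3ar1 than Foxj2 does. Wbp11, 5.41 kb from H2afj by lowest coordinates, was at -0.44 and -0.41, where H2afj was at 0.03 and 0.12. Their promoter windows lie further apart, that of H2afj ending at 136808247 and that of Wbp11 beginning at 136828217. Phc1, a Polycomb protein 9.01 kb from M6pr, was at -0.61 and -0.65, and Pex26 on its other side was not called lower. Beside Tra2a, Igf2bp3 was not called lower (-0.41 and -0.36), and Ccdc126 was lower in KO1 alone.

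**Figure D5:**
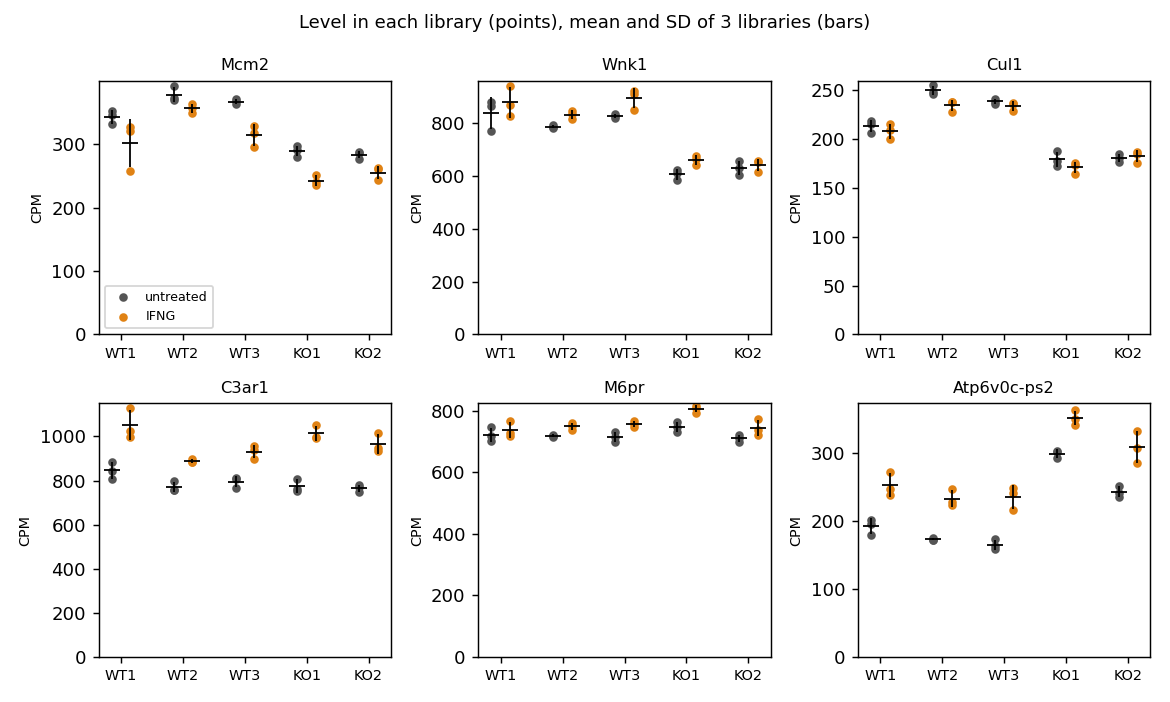
CPM of 6 members (1 panel each, y axis from 0) by clone (x axis), with a point for each library coloured by treatment and bars for the mean and SD of 3 libraries. Untreated, Mcm2, Wnk1 and Cul1 are lower in every KO library than in any WT library, M6pr and C3ar1 overlap, and Atp6v0c-ps2 is higher in every KO library.

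By annotated type, a grouping chosen after the values were seen, the pseudogenes stood apart. Of 389 protein-coding members 193 were followers (49.6%), with a pooled median log2FC of -0.30. None of the 40 pseudogenes (37 processed) was called lower in both clones untreated by edgeR, where 1 was lower and 4 higher in both at an unadjusted p under 0.05 and DESeq2 also called 0. Their pooled median was 0.11, 23 of them were at or above 0 in both clones and 15 were above the shared level in both. Among members of at least 10 CPM, 0 of 13 pseudogenes and 174 of 322 protein-coding genes were followers, and 9 of those 13 pseudogenes were above the shared level. With IFNG 1 pseudogene, Gm18840, was called lower in both, and it lies near the lower limit of mean level. Of 35 members of other types, such as antisense and lincRNA genes, 5 were followers.

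In the pooled untreated libraries 4 of the 40 pseudogenes were called higher than WT, where 12.2% of all tested genes were. Atp6v0c-ps2 was at 158 to 202 CPM (median 173) in the 9 WT libraries and 235 to 303 CPM (median 272) in the 6 KO libraries. The KO libraries all lay above the WT libraries for Atp6v0c-ps2, a copy of a subunit gene of the vacuolar proton pump (log2FC 0.61 ± 0.07 (SE), adjusted p = 8.83e-06; with IFNG 0.46). Gm10443 and Dynlt1-ps1 had log2FC values of 0.44 and 0.38 with adjusted p of 0.00371 and 0.001 (edgeR), and the lincRNA gene Gm7292 had 0.23 with 0.017. Gm9794 was at 235 to 333 CPM (median 270.1) in WT and 277 to 327 CPM (median 292) in KO libraries (log2FC 0.11 ± 0.07 (SE), adjusted p = 0.288).

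Their named parent genes had similar values on other chromosomes. Of 14 pseudogenes named after a parent, 12 parents were tested, and 0 of these lay on chromosome 6. The parents had median log2FC values of 0.21 in KO1 and 0.06 in KO2 untreated, the pseudogenes 0.19 and 0.07. Atp6v0c-ps2 was at 0.75 and 0.46, and Atp6v0c on chromosome 17 at 0.64 and 0.41. Rbpj-ps3 was at 0.26 and 0.05, and Rbpj on chromosome 5, the effector of Notch signalling, at 0.28 and 0.11. Reads of a processed pseudogene and of its parent can be exchanged between near-identical copies, so the pseudogene values are uncertain, and how many of the counted fragments came from the parents was not tested.

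The KO clones also differed from each other, at shares of members near those of all tested genes. Untreated, KO1 was called lower than KO2 for 55 members (11.9%) and higher for 70 (15.1%), 125 in all. Of all tested genes 12.1% were lower and 11.1% higher, 23.2% in either direction. With IFNG 43 members (9.27%) were lower and 34 (7.33%) higher, against 8.36% and 6.53% of all genes, 14.9% in either direction. Gpnmb, a lysosomal membrane glycoprotein of macrophages, was at 80.7 ± 4.92 CPM in KO1 and 4.75 ± 1.05 in KO2 (mean ± SD, n = 3 libraries). In the WT clones it was at 121 ± 5.19, 3.01 ± 0.619 and 5.76 ± 1.51, so the KO clones fell on either side of a difference that the WT clones had too.

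The members' lack of an IFNG response in WT was what chose them. In the 12 KO libraries, which the rule did not use for the response, 71 members (15.3%) were called lower and 49 (10.6%) higher with IFNG (edgeR). Of all tested genes 30.7% were called in either direction. Of the genes of other chromosomes within the same limits, 13.9% were called lower and 11.4% higher, shares close to those of the members. The median log2FC of the members was -0.02 and the range -0.63 to 0.78. This fit pooled both KO clones without a term for clone, so differences between KO1 and KO2 added to its spread. The counts of called members depend on that choice, and a fit with such a term was not run. An absolute log2FC of at least 0.5 was reached by 12 members, of which 9 were called. Those not called included Cand2 (-0.63 ± 0.51, SE) and Il17ra (-0.56 ± 0.38, SE), which both differed between the KO clones. The called members that fell were Zfp212 and Zfp956, zinc-finger proteins, Gsdme, a gasdermin, Pcgf1, a Polycomb protein, Rtkn and Arhgap25. Csgalnact2, a chondroitin sulfate enzyme, Gm18840 and Gm44958 rose. All 9 moved in the same direction in WT, by the log2 ratio of the rule. Those that fell had -0.49 (Arhgap25) to -0.27 (Zfp956) in WT, and those that rose 0.37 (Gm18840) to 0.47 (Csgalnact2). Arhgap25 had a log2FC of -0.53 ± 0.06 (SE, adjusted p = 1.29e-05) and Csgalnact2 0.57 ± 0.06 (adjusted p = 2.79e-06), and both lay just inside the limit of the rule in WT.

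At the limits of the rule, Nrf1, Ube2h and Zc3hc1 were the nearest members inside the limit of position, and Ahcyl2, Smo and Tnpo3 the nearest genes outside, with starts of 29768011, 29735503 and 29540827. Mir7670, Gm18840 and Plxna4os1 had 1.01, 1.02 and 1.05 CPM, and Ldhb, Gm5112 and Zfp9, outside, 0.982, 0.969 and 0.964. Arhgap25, Cyren and Csgalnact2 had WT responses of -0.49, -0.48 and 0.47, and Bhlhe40, Vhl and Ccdc142, outside, of -0.51, 0.51 and -0.51. Of the 10 Clec genes left out by name, 7 met the other limits, and 2 of these, Clec4a3 and Clec4d, were lower in both KO clones. The spans of 147 members meet that of another gene with a mean of at least 1 CPM, 64 on the same strand and 90 on the opposite one. Overlaps with genes below that level were not searched. Fragments over exons of overlapping genes were counted for each, so that Gm45234 and Atn1, for example, share fragments.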

How the data were processed

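Polyadenylated RNA of 30 libraries was analysed from the gene counts deposited by the authors, as raw read-pair counts per gene. Per the study's methods and the file header, reads were trimmed with BBDuk, aligned to mm10 with HISAT2 2.1.0, reduced to uniquely aligned fragments with SAMtools 1.10 and counted in a reversely stranded manner with featureCounts 1.6.2, with fragments over several genes counted for each. The submitters' notes also name deepTools 3.0.1 and DESeq2 1.26.0. The header names GENCODE vM18 as the annotation, the methods a RefSeq annotation, and the difference bears on which transcripts are listed. Restricting counts to unique alignments lowers genes with near-identical copies. The other 13 tables hold columns of the same libraries and were not used. The columns named wtc1 and wtc3 were taken as WT2 and WT3.

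CPM used TMM factors. Each comparison was fitted over all tested genes with edgeR 4.0.16 (quasi-likelihood test, R 4.3.3, limma 3.58.1, Benjamini-Hochberg threshold 0.05), both KO clones apart and pooled, on libraries that total 15566122 to 37992642 counts. Fits relative to the members took their scaling from the members. DESeq2 1.42.0 was an alternative. Scripts were tested on simulated data. Libraries of a group differed by 1.95 to 19.5 times the counting variance (chi-square per degree of freedom), so none was counted as a duplicate. Identifiers had symbols for 54079 of 54146 genes, and 3109 of 3131 chromosome 6 genes had the same span in GENCODE vM21, from which types were taken. Neighbours were found by gene starts, taken as the lowest exon coordinate deposited with the counts, whatever the strand. Nothing states that replicates of a clone are separate cultures, so p-values may measure technical spread.

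The members, the function lists and the tests were chosen with earlier results of these data known. Genes were named by a rule: the 6 lowest and 6 highest pooled log2FC among called members of at least 5 CPM with KO clone means outside the WT clone means in both treatments, in each list the 2 highest in CPM per kb of exon and the 1 with the highest log2FC, up to 10 members above the shared level in all comparisons, the 3 members nearest each limit inside and outside, and Dicer1. Further names, among them neighbours, members lower in all comparisons and pseudogene parents, were chosen after their values were seen. Alternatives covered the tool, scaling, filter, depth, left-out libraries and clones, summed clones and the limits of the rule. Results of some members are not reported here.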

Additional observations from a re-analysis of the deposited data

Results flagged for a closer look

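The test of KO1 against KO2 itself (edgeR, adjusted p under 0.05) called 8 members in both treatments with a log2FC of at least 1 in size, and the untreated values are given. Gpnmb was higher in KO1 by 4.07 on the log2 scale. Smyd1, a muscle methyltransferase, differed by 1.98 and Cand2, a regulator of cullin assembly, by 1.96. Ndnf had a value of -2.59. Ccnd2, a D-type cyclin, had -1.97 and was also unequal among the WT clones, at 179 CPM in WT1 and 1.70 in WT2. Plxna4os1 had -1.45 and Rab19, a small GTPase, -1.44. Il17ra, a chain of the IL-17 receptor, had -1.33.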

How the results depend on the processing

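Of 167 alternatives for the main counts and values, 150 stayed within 1.5 times the reported value and 17 moved. Summing counts per clone left 0 members called in the pooled comparisons of either treatment. Leaving out 1 library or clone gave 187 to 307 members lower in KO1 and 150 to 333 in KO2 untreated, 157 to 303 and 103 to 302 with IFNG, and 234 to 323 and 203 to 309 for the pooled comparisons. Members lower in both clones numbered 157 to 283 untreated and 116 to 271 with IFNG, the protein-coding ones 153 to 272 and 112 to 262, and pseudogenes 0 to 2 and 0 to 1. Members differing between the KO clones ranged from 84 to 110 untreated and from 44 to 85 with IFNG (44 without KO2 library b). Calls above the shared level ranged from 57 to 63 in KO1 and 40 to 43 in KO2 untreated, and from 38 (without KO1 library b) to 44 and 33 (without KO2 library a) to 37 with IFNG, and members responding to IFNG in KO from 96 to 102. Lower in both clones with IFNG without WT1 were 271 members. Pseudogenes lower in both were 1 untreated with thinned libraries, and with IFNG 0 with DESeq2, 0 with thinned libraries and 0 without WT2 or WT3.

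For 45 named genes, 417 of 494 alternatives kept the call, 59 lost it (29 with counts summed per clone) and 8 gained it. Without 1 clone 10 values changed sign, of which Eno2 without WT1 became called higher (adjusted p = 1.25e-08, edgeR) and the other 9 were not called, with ranges over the left-out clones of -0.34 (without WT3) to 0.060 (without WT1) for Tpi1, -0.33 (without WT1) to 0.017 (without WT3) for Akr1b8, -0.49 (without WT3) to 2.15 (without WT1) for Eno2, which was 0.11 without KO2, -0.17 (without KO2) to 0.24 (without KO1) for Sfxn5, -0.014 (without KO1) to 0.045 (without KO2) for M6pr, -0.023 (without WT2) to 0.18 (without WT1) for H2afj, -0.0096 (without WT1) to 0.27 (without WT3) for Frmd4b, and -0.031 (without WT1) to 0.038 (without WT3) for Klhdc10, which was -0.018 without KO2. The cause was not tested. No paired analysis was possible by replicate because the columns carry no replicate numbers, so the planned replicate block was not run. The columns do name the clone, but a fit of the IFNG response in KO with clone as a block was not run. Depth limits members near 1 CPM.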
